A study of Mus musculus with 2 samples.

Results

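Duodenal enterocytes take up iron from food and pass it to the blood, and 7 mouse genes that encode the main steps of that route are described here in cells from duodenal crypts. The genes are Cybrd1, Slc11a2, Slc40a1, Heph, Tfrc, Fth1 and Ftl1. They were found in the deposited gene-by-cell matrix by their symbols: all 7 symbols were present, 1 row each, among 31205 symbols on 31253 rows. The rule uses symbols only.

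Wild-type mice made up both groups, labelled NT and ES, names that the labels do not expand. The series title places the work in chronic stress and the aging of intestinal stem cells. Crypts of 5 animals were pooled for each group, so each group is 1 library and has no replicate. The labels give no age, sex or strain.

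The matrix marks its 2 libraries by a suffix on each cell barcode, and no label or header ties suffix 1 or suffix 2 to NT or ES. Every comparison below is therefore of the library with suffix 2 to that with suffix 1, and its direction cannot be read as an effect of the treatment. Of 12756 barcodes, 6310 ended in 1 and 6446 in 2, and 40 barcode sequences occurred under both suffixes, 13 of them among the kept cells of both. Before the suffix the barcodes are 27 bases long. That is not the barcode length of the kit named in the labels, and the difference is unexplained. After a filter on genes and mitochondrial content, 4057 and 3727 cells remained, with a median of 10854 and 11800 unique molecular identifiers (UMIs, counted RNA molecules) per cell.

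Dietary iron is mostly ferric. Cybrd1 encodes duodenal cytochrome b, a ferrireductase of the brush border, and Slc11a2 encodes DMT1, the transporter that carries ferrous iron into the enterocyte. Slc40a1 encodes ferroportin, the only known iron exporter of mammalian cells, and Heph encodes hephaestin, a copper-dependent ferroxidase that works beside it at the basolateral membrane. Tfrc encodes the transferrin receptor, through which dividing cells take up iron from plasma. Fth1 and Ftl1 encode the heavy and light chains of ferritin, the shell in which cells store iron. Cytosolic iron regulatory proteins bind a short RNA hairpin, the iron responsive element: in a 5′ UTR bound protein blocks translation, and in the 3′ UTR of Tfrc it protects the mRNA from decay.

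That hairpin is shown because it divides the members in which it was found by the side of the message on which they carry it. The letters searched for were C, any 5 bases, CAGTG, then A, C or T, and 5 bases that pair with the first 5, on the sense strand of annotated UTRs only. The sequences were read from the GRCm38 genome with the GENCODE M21 annotation, and capitals mark the loop. Only transcripts with the basic tag of that annotation were searched.
Fth1, 5′ UTR, chr19:9982732-9982760, plus strand: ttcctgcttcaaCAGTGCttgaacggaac
Ftl1, 5′ UTR, chr7:45459779-45459807, minus strand: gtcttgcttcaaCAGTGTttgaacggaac
Slc40a1, 5′ UTR, chr1:45925465-45925493, minus strand: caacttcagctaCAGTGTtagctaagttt
Tfrc, 3′ UTR, chr16:32631219-32631247, plus strand: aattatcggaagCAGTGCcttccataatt
Tfrc, 3′ UTR, chr16:32631598-32631626, plus strand: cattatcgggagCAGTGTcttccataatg
Tfrc, 3′ UTR, chr16:32631663-32631691, plus strand: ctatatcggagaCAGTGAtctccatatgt
Tfrc, 3′ UTR, chr16:32631710-32631738, plus strand: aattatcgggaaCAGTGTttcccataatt

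Fth1, Ftl1 and Slc40a1 each held 1 match in a 5′ UTR, and Tfrc held 4 in its 3′ UTR. The Fth1 match lay in 3 of the transcripts searched, and each of the others in 1, so not every transcript of a gene need hold it. Such letters were rare: 21 of 21087 genes with a searched 5′ UTR held a match there (0.0996%), and 98 of 21112 held one in a 3′ UTR (0.464%). No match was found in the UTRs of Slc11a2, Cybrd1 or Heph, which says only that these letters are not in those annotated UTRs.

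On GRCm38 the genes lie at chr2:71117923-71142926 (Cybrd1, plus strand), chr15:100387898-100425072 (Slc11a2, minus), chr1:45908068-45926523 (Slc40a1, minus), chrX:96455359-96574485 (Heph, plus), chr16:32608920-32632794 (Tfrc, plus), chr19:9980598-9985098 (Fth1, plus) and chr7:45457944-45459884 (Ftl1, minus). Slc11a2 overlaps Gm5475 and Heph overlaps Hsf3 on the opposite strand. Whether strand was used in counting is not stated, so reads from such partners may not be separated.

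Cells were placed in classes by the share of their UMIs that came from lists of marker genes, none of which is a member. The classes are ranges of a score, and 13.7% and 14.9% of lower enterocyte-like cells lay within 0.8 to 1.25 times a cut. The 2 suffixes held 1066 and 741 stem-like cells, 578 and 376 cycling progenitor-like cells, 932 and 978 lower enterocyte-like cells and 161 and 212 upper enterocyte-like cells. Upper enterocyte-like cells gave at least 2.5% of their UMIs to the enterocyte list, and Cyp3a11 of that list was among the 10 genes that led them. There were 483 and 612 goblet-like, 178 and 171 Paneth-like, and 73 and 96 enteroendocrine-like cells. Only 19 tuft-like cells had suffix 1, so tuft-like cells are not compared between the libraries. A group of 281 and 238 cells with lymphocyte markers is given no type name, because its median depth was low, at 2443 and 3222 UMIs, and none of the listed markers was among its 10 leading genes, which included the T cell genes Trgv2, Trgv1 and Trat1. Lower enterocyte-like cells had no listed marker among theirs either, but were not shallow. More than 1 marker list passed its cut in 36.5% and 37.4% of Paneth-like cells and in 26.0% and 14.6% of enteroendocrine-like cells.

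The tissue label was checked on listed regional genes, in CPM, that is UMIs of a gene for 1000000 UMIs. Of the duodenal list, Gata4 stood at 233 and 254 CPM, Onecut2 at 160 and 171, Gkn3 at 39.1 and 22.3, Pdx1 at 9.47 and 9.86 and Hoxb4 at 0.827 and 0.687. Of the ileal list, the bile acid genes Fabp6 and Slc10a2 were near 0, at 1.10 and 1.37 CPM and at 0.413 and 0.258 CPM, but Osr2 (50.6 and 51.5 CPM) and Muc3a (48.4 and 63.9 CPM) were not. Macrophages recycle iron and express several members, so their markers were checked as well. The 12 macrophage and dendritic markers summed to 55.4 and 31.4 CPM over all kept cells, 3 of them were at 0 in each library, C1qb and C1qc among these, and the sum came mostly from Fcer1g at 33.4 and 16.7 CPM. Erythroid markers summed to 0.806 and 0.623 CPM.

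A level below is the CPM of UMIs summed over the cells of a class, with an exact Poisson 95% interval. A ratio is called apart when it is at least 1.5 in either direction and its exact 95% interval leaves out 1. Between classes the limit is 2 in both libraries. Genes entered a comparison with at least 100 UMIs. These intervals cover counting error only, not differences between mice or cells, and no p-value is given because each group is 1 library. Levels of different genes are not compared, since the values are not per length.

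**Figure D1:**
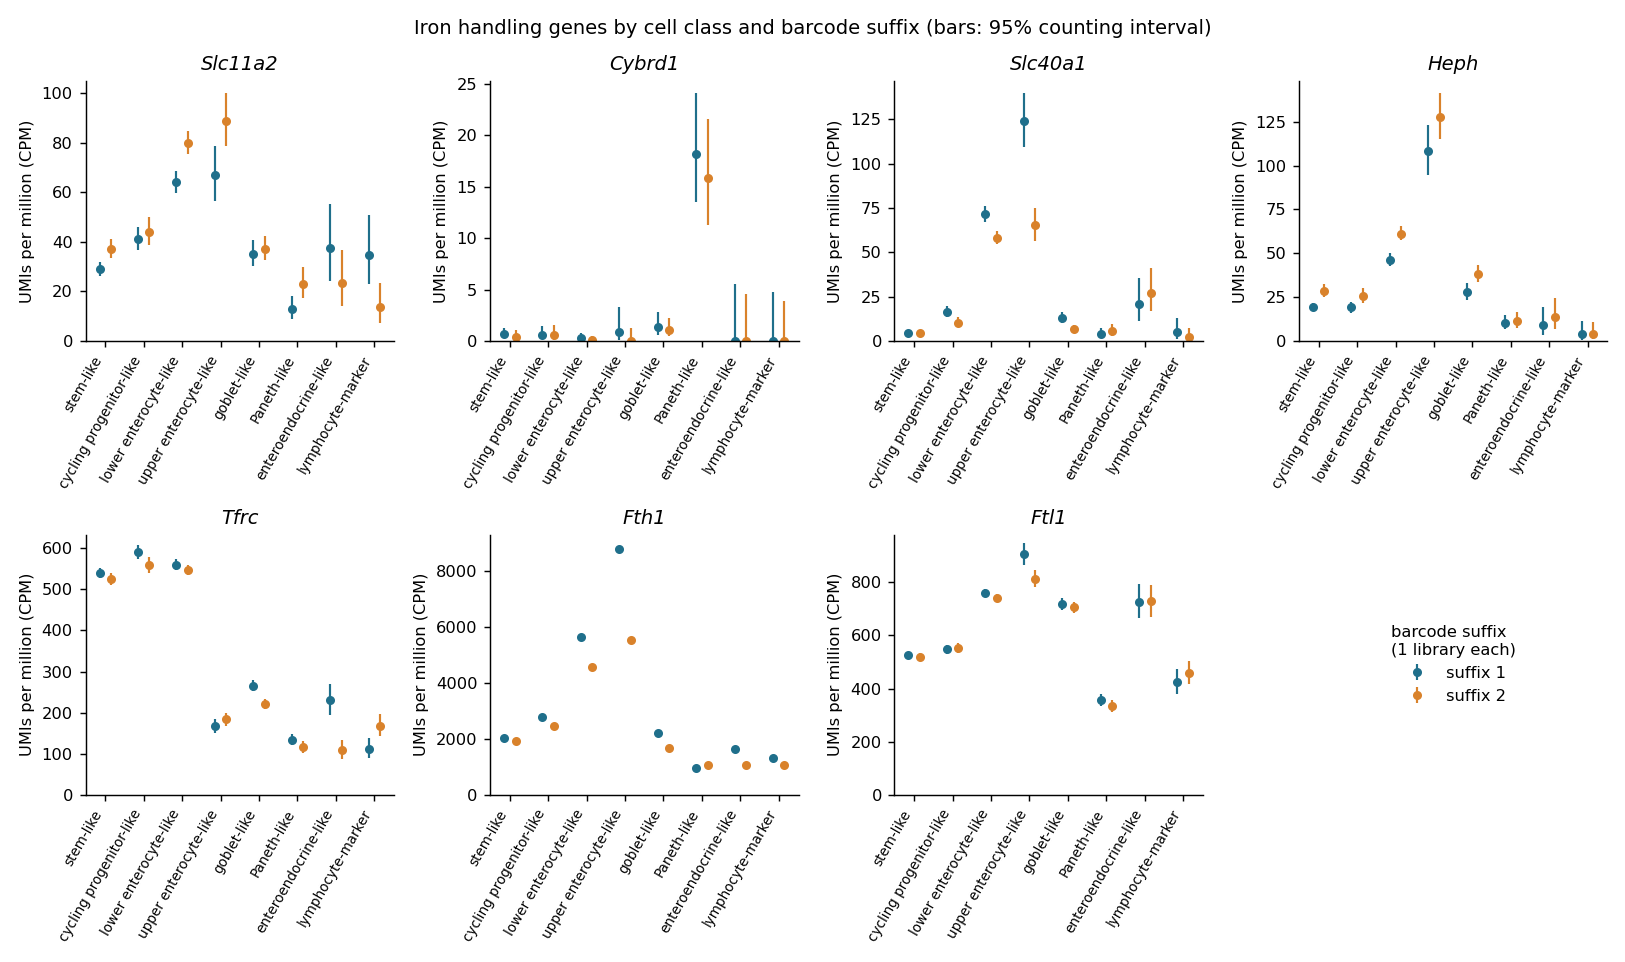
CPM (vertical axes, linear from 0) of each of the 7 genes in 8 cell classes (horizontal axes), as 1 point per barcode suffix with its 95% counting interval. Slc11a2, Slc40a1, Heph and Fth1 are highest in upper enterocyte-like cells, Tfrc falls to 167 and 183 CPM there, and Cybrd1 stands out in Paneth-like cells at 18.2 and 15.8 CPM.

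Between stem-like and upper enterocyte-like cells, 4 of the 6 measured members were higher and 1 was lower. Slc11a2, Slc40a1, Heph and Fth1 were the higher genes, Tfrc the lower one, and Ftl1 was not past the limit. Among all 10242 measured genes, 11.4% were higher and 34.3% lower in the same comparison, and the median log2 ratio was -0.61 over all genes against 1.52 over the members. When that median was set to 0, Ftl1 also passed the limit, at ratios of 2.66 and 2.35, and Tfrc no longer did, at 0.477 and 0.523. Between stem-like and lower enterocyte-like cells the same 4 genes were higher and none was lower, beside 8.27% and 19.1% of all genes.

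The reductase Cybrd1 was almost absent from the absorptive cells. It had 140 UMIs in all barcodes and 132 in kept cells, and 88 of the 132 (66.7%) lay in Paneth-like cells, which made up 4.48% of the cells and held 5.44% of all UMIs. Paneth cells are secretory cells of the crypt base that release defensins and lysozyme.

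In Paneth-like cells Cybrd1 had 49 UMIs with suffix 1, a level of 18.2 CPM (95% interval 13.5 to 24.1), and 39 UMIs with suffix 2, a level of 15.8 CPM (11.2 to 21.6). The UMIs were spread over 38 of 178 and 34 of 171 cells, with at most 3 in a cell. Both libraries thus showed the gene at a like level, with overlapping intervals.

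Among the absorptive cells, Cybrd1 had 4 and 2 UMIs in lower enterocyte-like cells. In upper enterocyte-like cells it had 2 UMIs with suffix 1 and 0 of 3012857 with suffix 2, and a count of 0 allows up to 0.996 CPM there, taken as 3 counts of that total. Stem-like cells had 9 and 4 UMIs and goblet-like cells 7 and 7. Enteroendocrine-like cells and the cells with lymphocyte markers had 0 in both libraries. The Paneth-like level was 45.3 times that of all enterocyte-like cells with suffix 1 (interval 19.4 to 129, from 6 UMIs in enterocyte-like cells) and 143 times with suffix 2 (37.0 to 1223, from 2 UMIs).

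Cybrd1 had 96 UMIs over these classes, so it is outside the measured genes, of which 2.62% were higher in Paneth-like than in enterocyte-like cells and 51.1% lower. The other 6 members were all among the lower genes, with ratios from 0.0516 for Slc40a1 with suffix 1 to 0.454 for Ftl1 with suffix 1. Paneth marker genes alone took 445798 and 462821 CPM in Paneth-like cells, which lowers the CPM of every other gene in them. Without mitochondrial and marker UMIs, Cybrd1 stood at 35.0 and 31.5 CPM.

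In the cells with lymphocyte markers the Paneth list stood at 0.706% and 0.963% of its Paneth-like level. A like share of the Cybrd1 level would come to less than 1 UMI there, so its count of 0 in them does not gauge free RNA. With each cell thinned to 2000 UMIs, 8.02% and 0.671% of Paneth-like cells held a Cybrd1 UMI, too few molecules to order the libraries, with 16 and 22 shallower cells left out. The whole cells gave shares of 21.3% and 19.9%. The 5 genes whose level over the classes was most like that of Cybrd1 were all Paneth defensins, Defa3, Defa39, Defa38, Defa29 and Defa40 (Pearson r of log2(CPM + 1) from 0.955 to 0.932 over 19 class-by-library points). These points share cells' depth and the makeup of their library, as do all such correlations below. They include the 52 tuft-like cells of suffix 2 and, in both libraries, the unclassified cells, which passed no cut.

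The importer Slc11a2 was present in every class and highest in the absorptive cells. Stem-like cells held 29.0 CPM (26.1 to 32.0) and 37.2 CPM (33.3 to 41.3), and the level was 41.1 and 44.1 CPM in cycling progenitor-like cells. It was 64.0 and 80.1 CPM in lower enterocyte-like cells, and 66.8 CPM (56.4 to 78.6) and 89.0 CPM (78.6 to 100) in upper ones. The upper cells thus stood 2.31 and 2.39 times above the stem-like cells, but only 1.04 and 1.11 times above the lower ones, where the intervals of the ratio held 1.

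In the other lineages Slc11a2 stood at 35.2 and 37.3 CPM in goblet-like cells, 37.6 and 23.4 CPM in enteroendocrine-like cells and 13.0 and 23.1 CPM in Paneth-like cells. Goblet-like and stem-like cells could not be ordered, with ratios of 1.21 and 1.003. The cells with lymphocyte markers had 34.8 and 13.6 CPM, from 27 and 13 UMIs, or 52.1% and 15.3% of the upper enterocyte-like level, where the enterocyte list stood at 1.73% and 2.58%.

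The exporter Slc40a1 had the steepest rise of the 6 measured members from crypt base to absorptive cells in both libraries. Stem-like cells held 4.66 CPM (3.57 to 5.99) and 4.35 CPM (3.11 to 5.92), and it stood at 16.5 and 10.4 CPM in cycling progenitor-like cells. The lower enterocyte-like cells held 71.6 CPM (67.0 to 76.3) and 58.3 CPM (54.5 to 62.3). In upper enterocyte-like cells it reached 124 CPM (110 to 140) with suffix 1 and 65.4 CPM (56.6 to 75.2) with suffix 2. Upper cells were 26.6 times (20.1 to 35.7) and 15.04 times (10.7 to 21.7) above stem-like cells.

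Outside the absorptive cells Slc40a1 was low: 13.0 and 6.77 CPM in goblet-like, 21.0 and 27.2 CPM in enteroendocrine-like and 4.09 and 5.67 CPM in Paneth-like cells. Its 4 and 2 UMIs in the cells with lymphocyte markers made 4.16% and 3.20% of the upper enterocyte-like level. The genes most like it over the classes were Cyp2c65, Tubal3, Npc1l1 (the intestinal cholesterol transporter), Ceacam18 and Cda, with r from 0.953 to 0.936.

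The ferroxidase Heph rose later along the same path. Its level was 19.3 and 28.7 CPM in stem-like cells and 19.2 and 25.8 CPM in cycling progenitor-like cells. It was 46.5 CPM (42.8 to 50.4) and 61.3 CPM (57.4 to 65.4) in lower enterocyte-like cells, and 108 CPM (94.9 to 123) and 128 CPM (115 to 141) in upper ones. Heph was the only member past the limit upward between lower and upper enterocyte-like cells, at 2.33 and 2.08 times, beside 4.37% of all genes, and Tfrc the only one downward, beside 9.60%.

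Goblet-like cells had 28.0 and 38.4 CPM of Heph and Paneth-like cells 10.0 and 11.3 CPM. The most similar genes over the classes were Myo1a, a brush border myosin, with Tmc5, Tmem45b, Myh14 and Trim31 (r from 0.965 to 0.940). Between the members themselves, the closest pairs over the classes were Slc11a2 with Fth1 (r of 0.863) and Slc40a1 with Fth1 (0.841), while Slc40a1 and Heph, the exporter and its oxidase, reached 0.594. One point of that last pair, the tuft-like cells of suffix 2, had 79.2 CPM of Heph and 3.04 CPM of Slc40a1, from 26 and 1 UMIs. Cybrd1 was negative with each of the other 6, from -0.637 to -0.198.

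The transferrin receptor Tfrc went the other way. It stood at 540 and 526 CPM in stem-like cells, 590 and 559 CPM in cycling progenitor-like cells and 561 and 547 CPM in lower enterocyte-like cells. In upper enterocyte-like cells it stood at 167 CPM (151 to 185) and 183 CPM (168 to 199), which was 0.310 and 0.348 times the stem-like level. Among stem-like cells, those past the cut of the cell cycle list had 1.18 times (1.12 to 1.24) and 0.967 times (0.914 to 1.02) the level of the others; the second interval held 1.

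Secretory cells were also low in Tfrc, with 265 and 221 CPM in goblet-like, 133 and 115 CPM in Paneth-like and 230 and 109 CPM in enteroendocrine-like cells. Goblet-like cells stood at 0.491 and 0.421 times the stem-like level. The genes most like Tfrc included 4 for mitochondrial proteins, Timm10, Phb2, Mrps35 and Hspe1, and Dmbt1, with r from 0.960 to 0.949.

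The ferritin heavy chain gene Fth1 was higher in each step of the path than in the one before, in both libraries. It stood at 2045 and 1931 CPM in stem-like cells, 2773 and 2447 CPM in cycling progenitor-like cells, 5651 and 4565 CPM in lower enterocyte-like cells and 8783 and 5541 CPM in upper ones. The upper cells stood 4.30 and 2.87 times above the stem-like cells. Goblet-like cells had 2213 and 1659 CPM and Paneth-like cells 970 and 1051 CPM. The most similar genes were Bche, Acaa2, Mertk, Mtarc2 and Aprt (r from 0.975 to 0.966).

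The light chain Ftl1 varied much less. Its level was 526 and 519 CPM in stem-like cells, 761 and 742 CPM in lower and 906 and 814 CPM in upper enterocyte-like cells, a ratio of upper to stem-like cells of 1.72 and 1.57. The most similar genes were Rab6a, Mapk8, Plekhb2, Stk25 and Clcn3 (r from 0.962 to 0.940). Ftl1 counts are uncertain because of its copies: of the 50-base words in the last 500 bases of its transcript, 80.9% also occur in other genes and 69.8% in Ftl1-ps1. Ftl1-ps1 has a row of its own in the matrix, and its 5′ UTR holds the same hairpin letters as Ftl1. For Fth1 the share was 12.9%, and for the other 5 members 0.

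**Figure D2:**
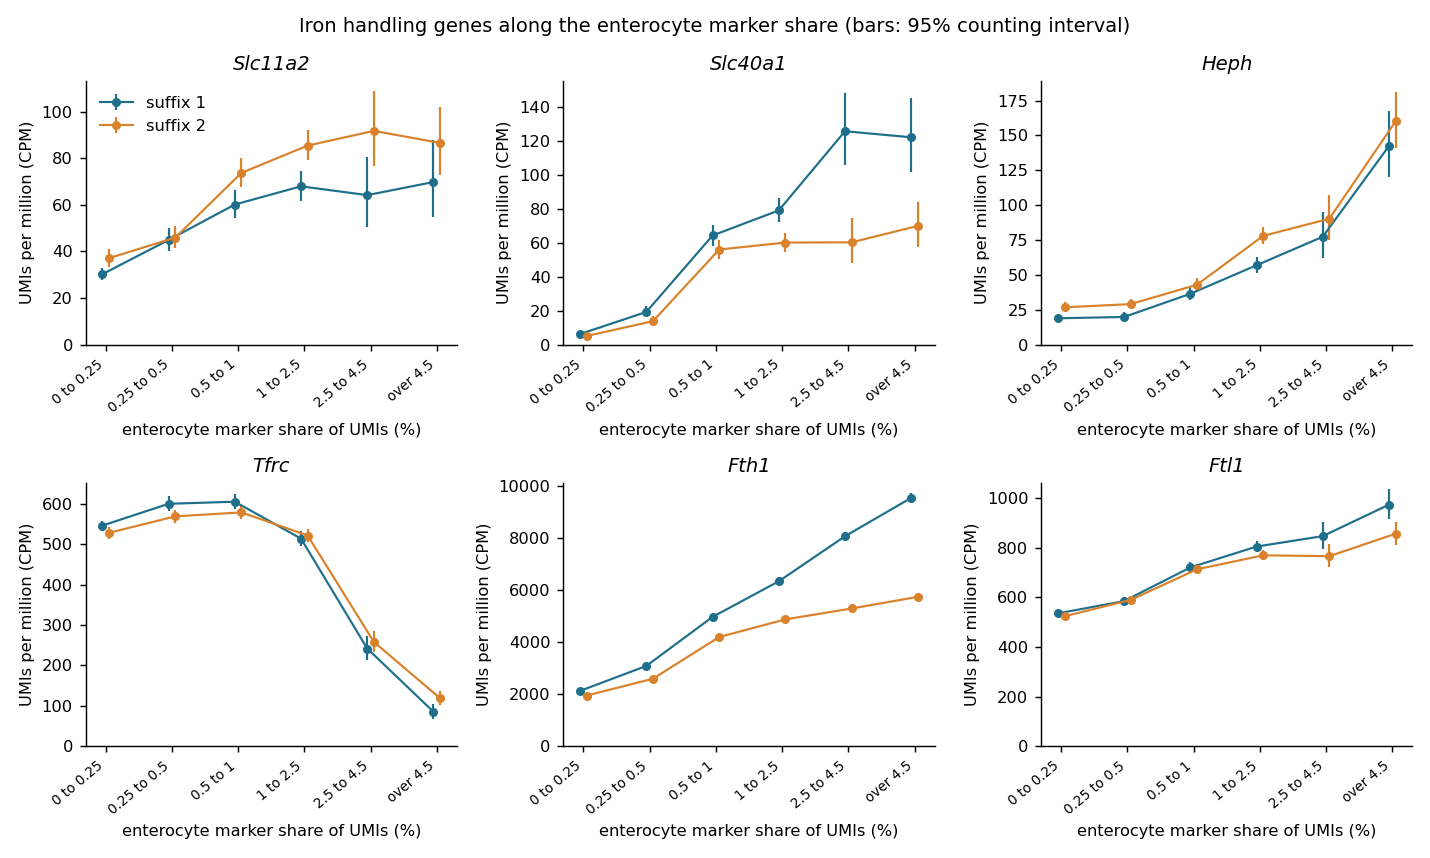
CPM (vertical axes, linear from 0) of 6 genes in stem-like, progenitor-like, enterocyte-like and unclassified cells split into 6 ranges of the share of UMIs from enterocyte markers (horizontal axes), with 95% counting intervals and 1 line per barcode suffix. Heph is highest in the last range, Tfrc is low only in the last 2, and the 2 libraries part for Slc40a1 and Fth1 at high shares.

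Splitting the cells by the enterocyte marker share itself, with secretory cells left out, gave the order of these changes. The 6 ranges held 1312, 604, 477, 469, 84 and 77 cells with suffix 1 and 764, 593, 503, 486, 94 and 118 with suffix 2. Slc40a1 with suffix 1 ran 6.18, 19.2, 64.2, 79.0, 126 and 122 CPM, with 64.2 CPM reached at shares of 0.5 to 1%. With suffix 2 it ran 5.04, 13.7, 56.0, 60.1, 60.2 and 69.9 CPM, level from the range of 0.5 to 1% on.

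Heph with suffix 1 ran 18.8, 19.8, 36.4, 56.9, 77.3 and 142 CPM, and with suffix 2 it ran 26.7, 29.0, 42.9, 77.9, 90.3 and 160 CPM, highest in the last range in both. Slc11a2 was at 60.1 and 73.7 CPM in the range of 0.5 to 1% and at 69.8 and 86.6 CPM in the last. Tfrc stayed between 513 and 605 CPM in the first 4 ranges of suffix 1 and between 521 and 578 CPM in those of suffix 2. In the last 2 ranges Tfrc stood at 242 and 85.3 CPM with suffix 1 and at 258 and 119 CPM with suffix 2. In both libraries, then, the largest steps of Slc40a1 in proportion lay below a share of 1%, where Tfrc was still at its crypt level, and Heph was highest where Tfrc was lowest.

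Within upper enterocyte-like cells Slc40a1 was held by few cells. Only 37.3% (Clopper-Pearson 95% interval 29.8 to 45.2) and 24.1% (18.5 to 30.4) of them had a UMI of it, against 64.0% and 71.2% for Heph. The tenth of cells richest in Slc40a1, 17 and 22 cells, held 65.4% and 79.7% of its UMIs. For Heph that share was 36.2% and 33.8%, for Slc11a2 37.2% and 37.7%, and for all UMIs 20.3% and 21.5%. With each cell thinned to 2000 UMIs, 16.6% and 8.21% of the cells had a Slc40a1 UMI and 20.0% and 21.0% a Heph UMI, with 16 and 17 shallower cells left out. The cells with lymphocyte markers, at a median of 2443 and 3222 UMIs against 13671 and 12744 in upper enterocyte-like cells, gave 0.712% and 0.840% for Slc40a1 without thinning.

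**Figure D3:**
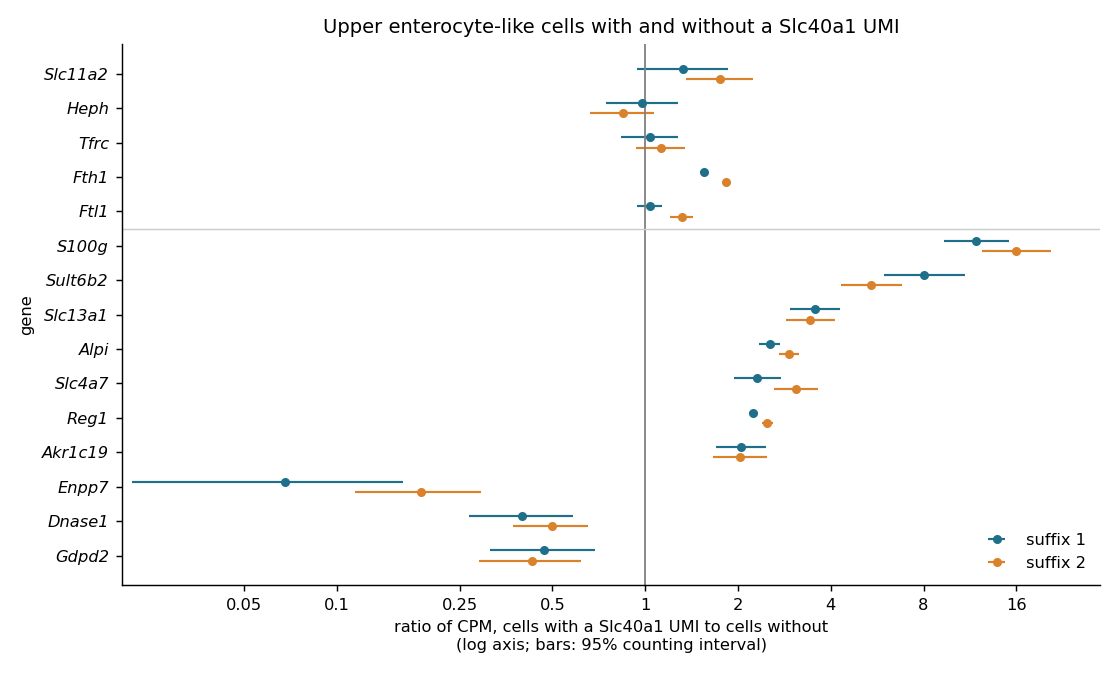
Ratio of CPM (horizontal log axis) in upper enterocyte-like cells with a Slc40a1 UMI to those without, for 5 members and the 10 genes past 2-fold in both libraries, with 95% counting intervals and 1 color per barcode suffix. S100g is 11.8 and 16.0 times higher and Enpp7 0.0679 and 0.188 times as high in the cells with Slc40a1, while Heph and Tfrc lie near 1.

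To see what set these cells apart, upper enterocyte-like cells with a Slc40a1 UMI (60 and 51 cells) were compared with those without (101 and 161), a split chosen after its values were seen. The cells with a UMI were deeper, at a median of 14714 and 16986 UMIs against 12706 and 11800, and their enterocyte marker share was slightly lower, at 4.01% and 4.20% against 4.75% and 4.96%. Of 3289 genes with at least 100 UMIs in each library, 7 (0.213%) were at least 2 times higher in the cells with Slc40a1 in both libraries and 3 (0.0912%) at least 2 times lower.

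S100g, which encodes the vitamin D-dependent calcium carrier calbindin-D9k of the duodenum, differed most. It stood at 742 CPM with Slc40a1 and 62.7 CPM without in suffix 1, and at 524 and 32.8 CPM in suffix 2. The other higher genes were Sult6b2, a sulfotransferase gene, Slc13a1, a sulfate transporter, the brush border phosphatase Alpi, Slc4a7, a bicarbonate transporter, the lectin Reg1 and Akr1c19. Slc13a1 and Alpi are in the enterocyte marker list. The lower genes were Enpp7, the intestinal alkaline sphingomyelinase, at 5.40 against 79.6 CPM and 24.7 against 131 CPM, with Dnase1 and Gdpd2.

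Among the members, Fth1 was higher in the cells with Slc40a1, at 11021 against 7120 CPM (1.55 times, interval 1.504 to 1.59) and 8206 against 4492 CPM (1.83 times, 1.77 to 1.88). Slc11a2 stood at 77.8 against 58.7 CPM (1.33 times, 0.943 to 1.86) and 128 against 73.5 CPM (1.74 times, 1.35 to 2.24). Heph had ratios of 0.978 and 0.844 and Tfrc of 1.04 and 1.12, with intervals that held 1 in both libraries. Pdx1, a transcription factor of the proximal duodenum, had 27 and 28 UMIs in the cells with Slc40a1 and 7 and 7 in the larger number without. Its ratios were 5.18 (2.20 to 14.1) and 10.2 (4.34 to 27.6), from 34 and 35 UMIs in all, below the minimum of 100. Other genes of the duodenal list differed less: Gata4 had ratios of 1.39 and 1.21 and Onecut2 of 1.68 and 1.72.

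The same split in lower enterocyte-like cells (354 and 342 cells with a UMI) gave 5 higher genes of 8274 (0.0604%): Pdx1, Meis2, Sult6b2, S100g and Slc13a1. The cells with a UMI were again deeper, at a median of 17385.5 and 18040 UMIs against 9667.5 and 12598.5 in the 578 and 636 without. Pdx1 stood at 16.5 against 4.03 CPM and 14.8 against 4.26 CPM. Sult6b2, S100g and Slc13a1 were thus past 2-fold in both classes and both libraries. Fth1 had ratios of 1.34 and 1.22 there, and Heph 1.14 and 0.995.

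**Figure D4:**
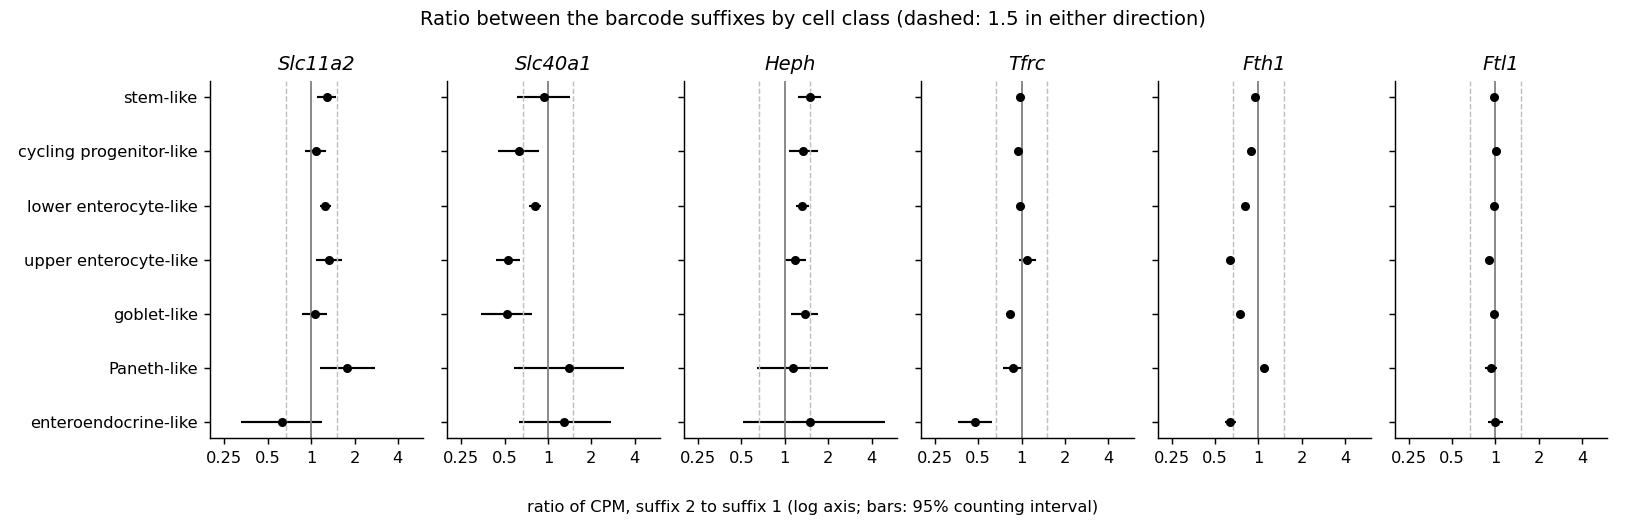
Ratio of CPM, suffix 2 to suffix 1 (horizontal log axis), of 6 genes in 7 cell classes (rows), with 95% counting intervals; dashed lines mark 1.5 in either direction. Slc40a1 and Fth1 lie beyond the lower line in upper enterocyte-like cells, at 0.528 and 0.631, while Ftl1 stays near 1 in every class.

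Among the stem-like and absorptive classes, members were apart between the 2 libraries in upper enterocyte-like and cycling progenitor-like cells. In upper enterocyte-like cells, Slc40a1 (ratio of suffix 2 to suffix 1 of 0.528, interval 0.437 to 0.636) and Fth1 (0.631, 0.618 to 0.644) were apart, 2 of 6 measured members, beside 6.02% of all genes. Slc11a2 (1.33, 1.08 to 1.64) and Heph (1.18, 1.001 to 1.39) stood higher with suffix 2 without passing the limit, and Tfrc (1.10) and Ftl1 (0.898) were near 1. Over all enterocyte-like cells no member was apart, beside 4.76% of all genes, and none was apart in lower enterocyte-like cells (4.29%) or stem-like cells (2.91%).

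The counting interval understates how few cells carry the Slc40a1 difference, since 17 and 22 cells held most of its UMIs. The median cell had 0 CPM in both libraries, and the cell at the ninetieth percentile had 470 and 215 CPM. Fth1 differed across the whole range of cells: the tenth, fiftieth and ninetieth percentiles were 4086, 7488 and 15639 CPM with suffix 1 and 2086, 4409 and 9521 CPM with suffix 2.

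Some genes that marked the Slc40a1-bearing cells were also past the limit between the libraries in upper enterocyte-like cells. S100g stood at 353 and 172 CPM, Enpp7 at 47.9 and 101 CPM and Reg1 at 7063 and 2952 CPM. Sult6b2 (ratio 0.701, 0.604 to 0.813) was not past the limit, and the interval of Pdx1 (0.741, 0.449 to 1.23) held 1. The Slc40a1 ratio was also taken within cells split by S100g, a choice made after the values were seen. Among cells with an S100g UMI, 74 in each library, Slc40a1 stood at 209 and 153 CPM (ratio 0.729, 0.598 to 0.888), and among those without, 25.7 and 9.27 CPM (0.360, 0.183 to 0.689), from 26 and 17 UMIs. Fth1 kept ratios of 0.664 and 0.685 in these 2 groups, and 0.745 and 0.631 in the cells with and without a Slc40a1 UMI. Slc40a1 in S100g-bearing cells was thus not past the limit, and in cells without S100g it was past 1.5 but from fewer than the 100 UMIs asked for. Fth1 was apart in the S100g-bearing cells and in those without a Slc40a1 UMI, and not past the limit in the other 2 groups. Whether the ratios of the split groups differ from each other was not tested.

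Along the enterocyte marker share, Slc40a1 had ratios of 0.816, 0.717, 0.871, 0.761, 0.479 and 0.572 and Fth1 of 0.916, 0.840, 0.844, 0.769, 0.656 and 0.601. Both were apart in the last 2 ranges only, beside 6.51% and 7.27% of all genes, and the first 4 had 3.41%, 3.50%, 4.08% and 4.43%. Tfrc in the last range had a ratio of 1.39 (1.08 to 1.81).

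Lower enterocyte-like cells were spread unevenly over clusters in the 2 libraries. The clusters were made over both libraries together, with no step to align them. Of 30 clusters of all cells, one held 77 and 439 cells of suffix 1 and 2 and another 312 and 38. In the first, Slc40a1 stood at 19.6 and 49.7 CPM and Fth1 at 4370 and 4561 CPM. In the second, Slc40a1 stood at 94.8 and 108 CPM and Fth1 at 6600 and 6772 CPM. All 6 clusters named lower enterocyte-like by their markers held both libraries. Besides the first and second, they had 130 and 339, 194 and 131, 150 and 68, and 112 and 60 cells. Over the 6 clusters, Slc40a1 was higher with suffix 2 in 4 and lower in 2, and Fth1 was higher in 2 and lower in 4. Slc40a1 was past the limit upward in the first cluster (2.53, 1.65 to 4.08) and downward in that of 112 and 60 cells (0.568, 0.391 to 0.808). Fth1 ratios in these were 1.04 and 0.762, within the limit. Over the whole class, the ratio was 0.815 (0.742 to 0.895) for Slc40a1 and 0.808 (0.799 to 0.816) for Fth1. The 2 clusters named upper enterocyte-like were held by both libraries, with 75 and 122 cells in one and 66 and 87 in the other. There Slc40a1 stood at 114 and 50.1 CPM and at 134 and 109 CPM, and Fth1 at 8930 and 5356 CPM and at 8691 and 6127 CPM, lower with suffix 2 each time. In the first cluster both genes were past the limit (0.439, 0.327 to 0.587, and 0.600, 0.582 to 0.618), and in the second neither was (0.810, 0.638 to 1.03, and 0.705, 0.684 to 0.726).

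In other classes few members were apart. Slc40a1 was apart in cycling progenitor-like cells (0.626, 0.451 to 0.861, beside 3.44% of all genes) and in goblet-like cells (0.519, 0.346 to 0.773, from 67 and 43 UMIs, beside 5.59%). In both classes the spread of cells over clusters differed between the libraries, though all 5 goblet-like clusters held both. Whether this bears on the class ratios was not tested. A cluster of cycling progenitor-like cells held 178 cells of suffix 1 and 2 of suffix 2. In 2 others held by both libraries, the Slc40a1 ratio was 0.871 (0.573 to 1.34) and 1.83 (0.578 to 5.51, from 9 and 7 UMIs), and both intervals held 1 as well as the 0.626 of the whole class. A goblet-like cluster of 148 and 95 cells, with a median of 1863 UMIs, had 28.6 and 24.8 CPM of Slc40a1 (ratio 0.867, 0.472 to 1.54). Clusters with 112 and 212 cells and with 101 and 163 cells had 5.65 and 4.67 CPM and 5.12 and 3.41 CPM. In each of the 5 goblet-like clusters the interval of the ratio held both 1 and 0.519.

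Enteroendocrine-like cells had Tfrc (0.472, 0.359 to 0.618) and Fth1 (0.639, 0.584 to 0.700) apart, beside 13.5% of genes, and 26.0% and 14.6% of these cells carried a second marker list. In Paneth-like cells Slc11a2 had a ratio of 1.78 (1.15 to 2.79) from 92 UMIs, below the minimum of 100, where 11.9% of measured genes were apart. In the cells with lymphocyte markers Tfrc was apart at 1.52 (1.16 to 1.99), beside 12.0% of genes. The mix of clusters differed too, and they went opposite ways: in a cluster of 237 and 73 of them the Tfrc ratio was 2.24 (1.55 to 3.27), and in one of 48 and 165 it was 0.642 (0.450 to 0.925). Heph stood higher with suffix 2 in stem-like (1.48, 1.24 to 1.77), cycling progenitor-like (1.35), lower enterocyte-like (1.32) and goblet-like cells (1.37), none past the limit.

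Ftl1 showed ratios between 0.898 and 1.08 in all classes compared, but its copy Ftl1-ps1 stood higher with suffix 2 in each of them. The ratio was 2.43 to 3.92 in the stem-like, progenitor-like, enterocyte-like and goblet-like classes, where it had at least 100 UMIs. It was 9.54 in Paneth-like cells from 4 and 35 UMIs, 4.93 in enteroendocrine-like cells from 4 and 24, and 2.66 in the cells with lymphocyte markers from 7 and 23. In enterocyte-like cells Ftl1-ps1 stood at 11.5 and 34.7 CPM. With both rows added, the ratio in enterocyte-like cells was 0.994. How reads were divided among the copies is not stated.

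The 83 further listed genes of iron, heme, copper and zinc handling in the matrix were also compared between the libraries in enterocyte-like cells. The counts below stand beside 4.76% of all measured genes apart in that class. Apart among 9 measured hypoxia genes, 11 copper and zinc genes and 1 ferritin copy were Egln3, an oxygen-sensing hydroxylase (13.5 and 21.5 CPM, ratio 1.59), Epas1, which encodes HIF-2 alpha, a known activator of intestinal iron transport genes (25.4 and 16.8 CPM, 0.662), the metallothionein Mt2 (14.7 and 25.2 CPM, 1.72) and Ftl1-ps1. The siderophore-binding lipocalin Lcn2 passed the ratio too (3.46), but from 10 and 42 UMIs. No gene was apart among 9 other transporters and reductases, 11 heme genes, 2 export and plasma genes, 11 iron sensing and chaperone genes or 11 mitochondrial iron-sulfur genes. The medians of these lists lay between -0.05 and 0.12 on the log2 scale, with 0.03 over all 9868 genes.

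Of the genes with most UMIs in each list, those named next were within the limit between the libraries in enterocyte-like cells. Abcg2, a porphyrin and drug exporter, stood at 215 and 234 CPM in enterocyte-like cells, and Slc39a14, a zinc and iron importer, at 88.9 and 104 CPM. Alas1, the first enzyme of heme synthesis, stood at 93.4 and 109 CPM and Cpox, a later one, at 153 and 147 CPM. The iron chaperone Pcbp1 stood at 577 and 625 CPM, the mRNA decay factor Zfp36 at 735 and 558 CPM, Hif1a at 44.7 and 48.9 CPM, the iron-sulfur protein Glrx5 at 220 and 208 CPM, Mt1 at 402 and 429 CPM and the copper importer Slc31a1 at 185 and 193 CPM. In stem-like cells Zfp36 was the only sensing or chaperone gene apart, at 412 and 229 CPM, beside 2.91% of all genes.

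From stem-like to upper enterocyte-like cells the same lists divided. Of 9 measured transporters and reductases, importers and exporters together, 4 were higher and 5 lower, beside 11.4% and 34.3% of all genes. Slc46a1, a folate transporter also described as a heme carrier, went from 4.51 and 4.35 to 124 and 85.6 CPM, and the heme exporter Flvcr1 from 6.27 and 6.63 to 75.6 and 77.3 CPM. Abcg2 and Slc39a14 were the other higher ones, and the reductases Steap1, Steap2 and Steap3 with Slc39a8 and Slc48a1 were lower. Steap2 had ratios of 0.115 and 0.141.

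Again beside 11.4% higher and 34.3% lower over all genes, 5 of 11 copper and zinc genes were higher, among them the manganese exporter Slc30a10, from 0.688 and 0.761 to 60.4 and 83.0 CPM, and 1 was lower, Mt2. Of 8 hypoxia genes Egln3 (0.764 and 1.30 to 55.3 and 83.6 CPM) and Epas1 (7.34 and 5.76 to 38.2 and 21.2 CPM) were higher. Of 11 sensing genes Aco1, which encodes iron regulatory protein 1, was higher, at 104 and 105 against 238 and 255 CPM, and Pcbp2 and Bola2 were lower. Of 11 heme genes Por and Alas1 were higher.

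Whether 2 members were met in the same cell was read in enterocyte-like cells thinned to 2000 UMIs, 914 and 1071 cells. Slc11a2 and Slc40a1 occurred together in 17 and 19 cells, where the product of their single shares gives 13.4 and 17.2. Slc40a1 and Heph occurred together in 16 and 14 cells against 12.1 and 12.9, and Slc11a2 and Heph in 10 and 20 against 12.6 and 22.0. No thinned enterocyte-like cell held a Cybrd1 UMI. With at most 20 cells each, these 3 pairs lay close to the products.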

How the data were processed

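Single-cell RNA was measured in 2 libraries of mouse duodenal crypts. The deposited matrix holds UMI counts per gene and barcode, with whole numbers and no normalization. Cell Ranger 2.1.1 and the mm10 build are named per the submitters' processing notes. The matrix holds 54316199 and 54877667 UMIs by suffix. Barcodes with under 500 genes or over 25% mitochondrial UMIs were left out (4972 of 12756). No doublet caller was run; the share of cells with more than 1 marker list past its cut is given instead. Classes were set per cell by the percentage of UMIs from marker lists, with cuts set after seeing the data (0.4 stem, 0.5 enterocyte, 1 goblet, 10 Paneth, 0.5 enteroendocrine, 0.4 tuft, 0.4 lymphocyte and 0.3 cycling). UMIs were summed per class and suffix, scaled to CPM, and compared with exact intervals (Python 3.11.15, SciPy 1.17.1); the calling step was tested on simulated data. Intervals cover counting error only, and UMIs of the same animals' pool are not replicates. Clusters were made with scanpy 1.11.5 and leidenalg 0.10.2 (2000 variable genes, 30 components, 15 neighbours, resolution 2). Thinning drew 2000 UMIs per cell, or 5000 where named, and left out shallower cells.

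The members, marker lists and iron gene lists were chosen with earlier results of these data known. The genes named are the 7 members; of each iron list, up to 3 with the most UMIs and those apart between suffixes in enterocyte-like cells; and per member the 5 genes with the highest Pearson r of log2(CPM + 1) among 9832 genes with at least 500 UMIs, marker lists left out. Genes named in the splits by Slc40a1 and S100g, and in the contrast of stem-like with upper enterocyte-like cells, were named after their values were seen.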

Additional observations from a re-analysis of the deposited data

How the results depend on the processing

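Over 905 recomputed values, 711 were counted as unchanged and 194 as moved, and no called value changed direction. A ratio or share was unchanged when it lay within the counting interval of the reported value. A count of genes was unchanged when it stayed within 1.5-fold. A value could thus keep its call and still count as moved. Of the moved values, 86 were shares of cells under thinning. Ratios that were not called did change side in some settings. Among these, the lowest value was 0.971 for Heph in upper enterocyte-like cells, 0.973 for Heph in goblet-like cells and 0.895 for Slc11a2 in cycling progenitor-like cells. The highest for Ftl1 in stem-like cells was 1.10. Slc40a1 in stem-like cells ran from 0.830 to 1.43 and Tfrc in Paneth-like cells from 0.554 to 1.24. Heph stayed within the limit in 9 of 11 settings in stem-like cells (highest 1.61) and in 10 of 11 in cycling progenitor-like cells (highest 1.59). The ratio of Slc40a1 between suffixes in upper enterocyte-like cells stayed apart under each alternative tried except a limit of 2, with values from 0.453 to 0.613. That of Fth1 moved beyond its counting interval to 0.646 with no cell filter beyond 500 UMIs, 0.647 with Leiden clusters, 0.596 as a mean over cells and 0.614 with the median of all genes set to 0. Members apart there were 2 as reported, 1 with cells thinned to 2000 UMIs, where fewer genes reach the UMI minimum, and 0 with a limit of 2. All genes apart numbered 342 in that class and became 687 (mean over cells), 99 (thinned) and 98 (limit of 2); over all enterocyte-like cells 470 became 795, 244 and 133. Members higher in upper enterocyte-like than in stem-like cells fell from 4 to 2 under thinning. Members lower fell from 1 to 0 with the median of all genes between the classes set to 0, an alternative chosen after seeing the data, as were leaving out barcodes found under both suffixes, leaving out cells with more than 1 list past its cut, and adding Ftl1-ps1 to Ftl1. Calls between suffixes that some settings ended included those of Slc40a1 in cycling progenitor-like cells (kept in 7 of 11) and goblet-like cells (9 of 10), Fth1 in enteroendocrine-like cells (7 of 11) and Tfrc in the cells with lymphocyte markers (5 of 11). Slc11a2 in Paneth-like cells, under the UMI minimum, passed in 9 of 10. Ratios of upper enterocyte-like to stem-like cells kept their call in 9 of 10 settings for Slc11a2 with suffix 1 (lowest 1.82) and for Tfrc with suffix 2 (highest 0.523). No paired analysis was possible because each group is 1 library. With 1 library a group, treatment, library and pool of animals cannot be told apart, and 161 and 212 upper enterocyte-like cells limit what can be said of Slc40a1.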
